A study of Ursus arctos with 5 samples.

Results

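The vesicle trafficking genes of grizzly bear skeletal muscle were followed from activity into hibernation. Members were chosen by gene symbol alone: Rab GTPases and Rab11 effectors, the SNAREs STX, VAMP and SNAP with the STXBP proteins, subunits of the COPI coat, the SEC genes, the TRAPP, COG and exocyst tethers, the AP1 to AP4 adaptor complexes, ARF GTPases, p24 proteins (TMED), sorting nexins, the CHMP proteins and the VPS genes. The rule found 110 genes with 173 assembled transcripts, among 4873 named genes with 9093 named transcripts and 26614 transcripts deposited in all. Where a gene had several transcripts, the one with the most reads stood for it.

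Biopsies of the gastrocnemius, a calf muscle, came from captive grizzly bears (Ursus arctos) called Star and Tia. Each bear gave 1 single-end RNA-seq library in October, when it was active and fed, and 1 in February, during hibernation and without food, so that each state had 2 libraries. The labels name no genotype or drug. By the methods of the study, the bears were anaesthetised for the biopsies with tiletamine and zolazepam and kept under isoflurane. The dose of tiletamine and zolazepam was higher in activity than in hibernation. The labels give an adult age of 10 years throughout, while the methods of the study speak of a subadult and an adult. Values are RPKM, reads scaled to transcript length and library depth, and changes are differences of log2(RPKM + 0.5), hibernating minus active, which understate the change of low transcripts.

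Membrane traffic moves proteins and lipids between compartments in vesicles. Coats (COPII from the endoplasmic reticulum, COPI within the Golgi and back, clathrin with adaptor complexes further out) select cargo and bend the membrane, Rab and ARF GTPases mark which membrane is which, tethers catch an arriving vesicle, and SNAREs fuse it with its target. Sorting nexins and retromer return cargo from endosomes, whereas ESCRT proteins bud it into them for breakdown. In muscle the same machinery carries the glucose transporter GLUT4 to the surface in response to insulin.

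Depth was similar among the libraries, from 44.7 to 54.2 M (mega) aligned reads, and the fewest reads behind any member's value were 31.0. Together the members took 0.420% and 0.427% of the reads in hibernating Star and Tia and 0.363% and 0.343% in the active libraries of the same bears. The tissue label was met by the fibre myosins MYH1, MYH2 and MYH7, with RPKM summing to 8767 to 13133 per library over the 3 of 8 listed fibre markers found. MYH1 was at 7625 RPKM in hibernating and 7801 in active Star, and at 2054 and 4823 in Tia. MYH7 was at 1295 and 1839 in Star and at 2872 and 3004 in Tia, while MYH2 was higher in hibernation in both bears. Of the markers of other cell types, 1 of 6 for fat cells, 4 of 6 for connective tissue, 1 of 3 for endothelium, 1 of 4 for nerve, 1 of 3 for macrophages and 0 of 4 for blood were found. Their summed levels ran from 148 to 225 RPKM in Star and were 271 in hibernating and 317 in active Tia for connective tissue, and stayed between 62.3 and 105 for fat cells and between 7.53 and 13.0 for endothelium. The active library of Tia stood apart in COL1A1, a fibrillar collagen, with 193 RPKM against 6.79 to 10.95 in the other libraries, and in the Schwann cell marker S100B, with 13.1 against 1.19 to 3.44. Of the other connective tissue markers found, FN1 was likewise highest in active Tia, at 4.88 RPKM against 2.10 to 2.37 in the other libraries. It changed by 0.13 in Star and -1.05 in Tia. COL3A1 and COL1A2 did not follow COL1A1. COL3A1 was at 210 and 254 RPKM in hibernation and 136 and 116 in activity, a change of 0.88 without overlap (limma, unadjusted p = 0.0132, adjusted p = 0.541). COL1A2 was higher in both bears with a change of 0.35. The macrophage marker CD68 was at 7.12 and 6.41 RPKM in hibernation and 3.28 and 3.94 in activity. The part of these markers in the results was not tested, and in bulk tissue fewer cells of a type and less RNA per cell cannot be told apart.

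More trafficking genes were higher than lower in hibernation, by small amounts. Of the 110 genes, 65 (59.1%) were higher in both bears, against 48.7% of all named genes, and 12 (10.9%) were lower in both, against 16.1%. The remaining 33 moved in opposite directions in the bears. In 49 genes (44.5%) both hibernating libraries lay above both active ones, against 35.8% of all named genes, and in 5 (4.55%) they lay below, against 8.11%. The median change was 0.20 on the log2 scale, beside 0.15 over all named genes. Between the changes in Star and in Tia, Pearson r was 0.468 and Spearman rho 0.450 across the 110 genes, and 0.320 and 0.347 across all 4873 named genes, as a description over genes measured in the same libraries.

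The members' counts were close to those of all genes in Star and above them in Tia. In Star, 78 members (70.9%) were higher in hibernation, against 72.1% of all named genes, with a median change of 0.19 beside 0.17. In Tia, 85 (77.3%) were higher, against 60.5%, with a median of 0.25 beside 0.13. Without the active library of Tia, 69 members (62.7%) had both hibernating libraries above active Star, against 54.9% of all named genes. The difference between the bears was not tested. Members were also somewhat more abundant than the average gene (median 6.23 RPKM beside 4.90), and within the middle range of their levels (3.52 to 11.5 RPKM) 32 of 54 members (59.3%) and 1102 of 2027 other genes (54.4%) were higher in both bears. In that range 23 members and 829 other genes had both hibernating libraries above both active ones. The median changes there were close, at 0.190 for members and 0.185 for other genes.

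These counts also depend on how the libraries are scaled. Dividing each library by its median ratio to the others, which centres the typical gene near no change, lowered the log2 changes. The typical shift was 0.18 in Star and 0.12 in Tia, and it was smaller for low transcripts. Then 44 members (40%) were higher in both bears and 27 (24.5%) lower, against 30.9% and 30.9% of all named genes, and the median member change was 0.05. Within the range of 3.52 to 11.5 RPKM, 18 of 54 members and 719 of 2027 other genes were then higher in both bears. Their median changes were close, at 0.0315 for members and 0.0313 for other genes. Directions given below are those on the deposited scale unless the median ratio is named. Counts for families and lists below stand beside 48.7% of all named genes higher and 16.1% lower in both bears. With median-ratio scaling these shares were 30.9% and 30.9%.

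**Figure D1:**
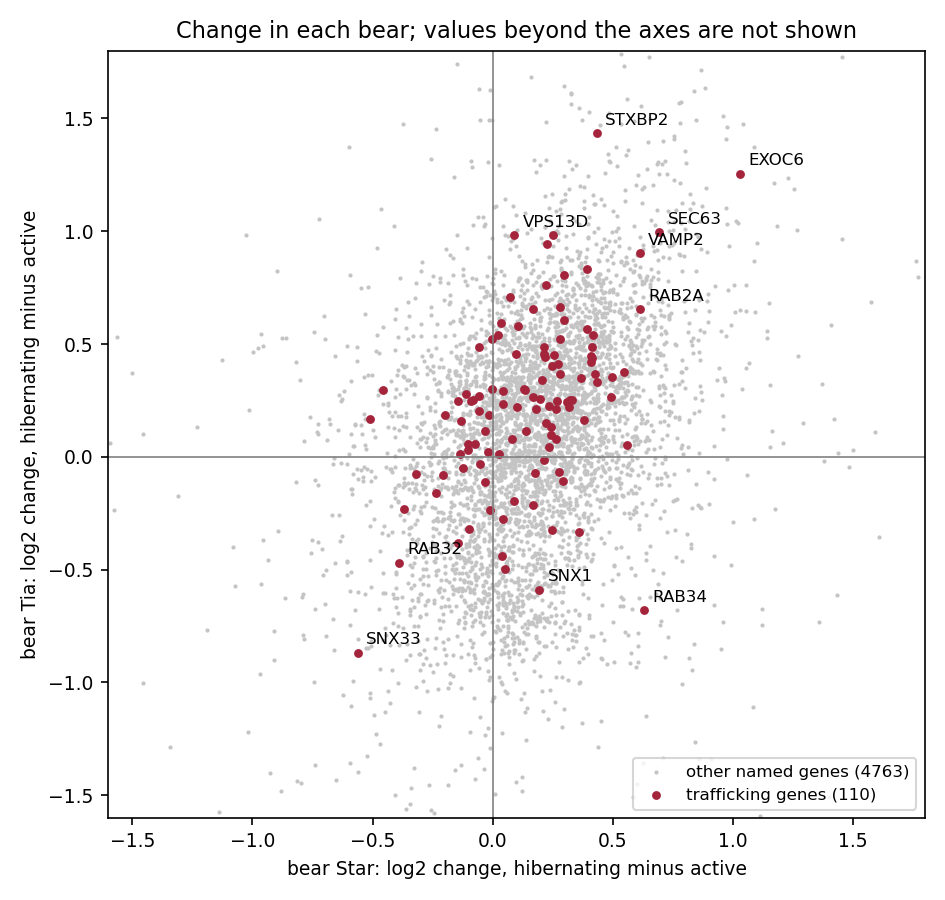
Each point is a gene at its log2 change (hibernating minus active, from RPKM + 0.5) in Star on the horizontal axis and in Tia on the vertical axis, with trafficking genes in red over other named genes in grey. Most red points lie at the upper right (65 of 110 above 0 in both bears), EXOC6 lies furthest out there, and SNX33 lies furthest down on the lower left.

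No member passed the test across all transcripts. By limma, with 2 libraries in each state and Benjamini-Hochberg adjustment over 9093 named transcripts, 0% of all transcripts and 0 of 173 member transcripts had an adjusted p under 0.05, and the members' adjusted p ran from 0.541 to 0.999. An exact permutation test of 2 against 2 cannot go below 0.33. At an unadjusted p under 0.05, 5 member genes (4.55%) were higher, namely EXOC6, SEC63, VAMP2, RAB2A and VAMP4, against 7.84% of all named genes, and 1 (0.909%) was lower, SNX33, against 1.66%. Both shares lie below those of all genes. With median-ratio scaling the split was 3 higher (EXOC6, SEC63 and VAMP2) and 2 lower (SNX33 and RAB32), against 3.47% and 3.2% of all named genes. A score modelled on NOISeq, the share of between-bear differences that the difference between states reaches or exceeds in fold and in size, was at least 0.8 for 4 of 173 member transcripts and for 3.61% of all named transcripts. The 4 were of STXBP2 (0.887), EXOC6 (0.822), SEC63 (0.811) and VAMP2 (0.801). Leaving out the hibernating library of Star turned the adjusted p of EXOC6 and of 1 STXBP2 transcript to between 0.0319 and 0.0464, among 92 named transcripts then under 0.05, with a single library standing for hibernation and assumed to vary like the active ones.

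The largest mean change of a gene was in the exocyst, the complex that tethers secretory vesicles at the plasma membrane. EXOC6, a subunit that binds Rab GTPases, was at 3.83 and 6.31 RPKM in hibernating Star and Tia and at 1.62 and 2.36 in the active libraries. Both hibernating values lay above both active ones, and EXOC6 was the only member whose log2 change reached 1 in both bears, a size that 35 of all 4873 named genes reached upward or downward. Its log2 change was 1.14 with a standard error of 0.31 (limma, adjusted p = 0.541), and its transcript is short, 525 bases, with at least 38.0 reads in every library. EXOC1 was at 6.67 and 7.82 RPKM in hibernation and 4.87 and 5.22 in activity, a change of 0.48. The most abundant subunit, EXOC3, was at 13.9 and 13.4 RPKM in hibernation and 12.04 and 11.2 in activity, a change of 0.23. Of the 5 exocyst genes 4 were higher in both bears, against 48.7% of all named genes, and the median was 0.27. EXOC2 was the exception, with changes of 0.09 in Star and -0.19 in Tia. Among the 4, EXOC3L1 was at 1.56 and 2.77 RPKM in hibernation and 1.29 and 2.08 in activity, with overlap. With median-ratio scaling 4 were still higher and 1 was lower in both bears.

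SNAREs and their STXBP partners, which carry out and regulate fusion, were higher in both bears in 6 of 10 genes and lower in 2, with a median of 0.25 (5 and 2 with median-ratio scaling). VAMP2, the vesicle SNARE of regulated secretion and of GLUT4 vesicles, was at 37.3 RPKM in both hibernating libraries and at 24.2 and 19.7 in active Star and Tia. The hibernating values were almost the same in the bears and far above the active ones, a change of 0.76 with a standard error of 0.22 (limma, adjusted p = 0.541). VAMP4, a SNARE of the trans-Golgi network, was at 5.999 and 7.92 RPKM in hibernation and 4.44 and 4.23 in activity, a change of 0.61, again without overlap.

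STXBP2, a Munc18 protein that binds syntaxins, behaved differently in the bears. Its main transcript was at 4.48 RPKM in hibernating and 3.19 in active Star, and at 19.4 and 6.88 in Tia. Tia was above Star in either state, the states overlapped, and the mean change of 0.93 had a standard error of 0.69 (limma, adjusted p = 0.687). Within the bears the change was 0.43 in Star and 1.43 in Tia. A fit without hibernating Tia gave -0.07, but it sets hibernating Star against the active libraries of both bears. STX4, the plasma membrane syntaxin of GLUT4 delivery, was at 12.02 and 12.5 RPKM in hibernation and 9.87 and 9.24 in activity, a change of 0.34 without overlap. SNAP29, which takes part in fusion of autophagosomes, was at 6.09 and 5.72 RPKM in hibernation and 7.73 and 6.05 in activity (-0.20), and STX17, its syntaxin partner there, at 3.12 and 3.78 against 3.45 and 3.93 (-0.09). Both were lower in each bear by little, and both groups of values overlapped.

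**Figure D2:**
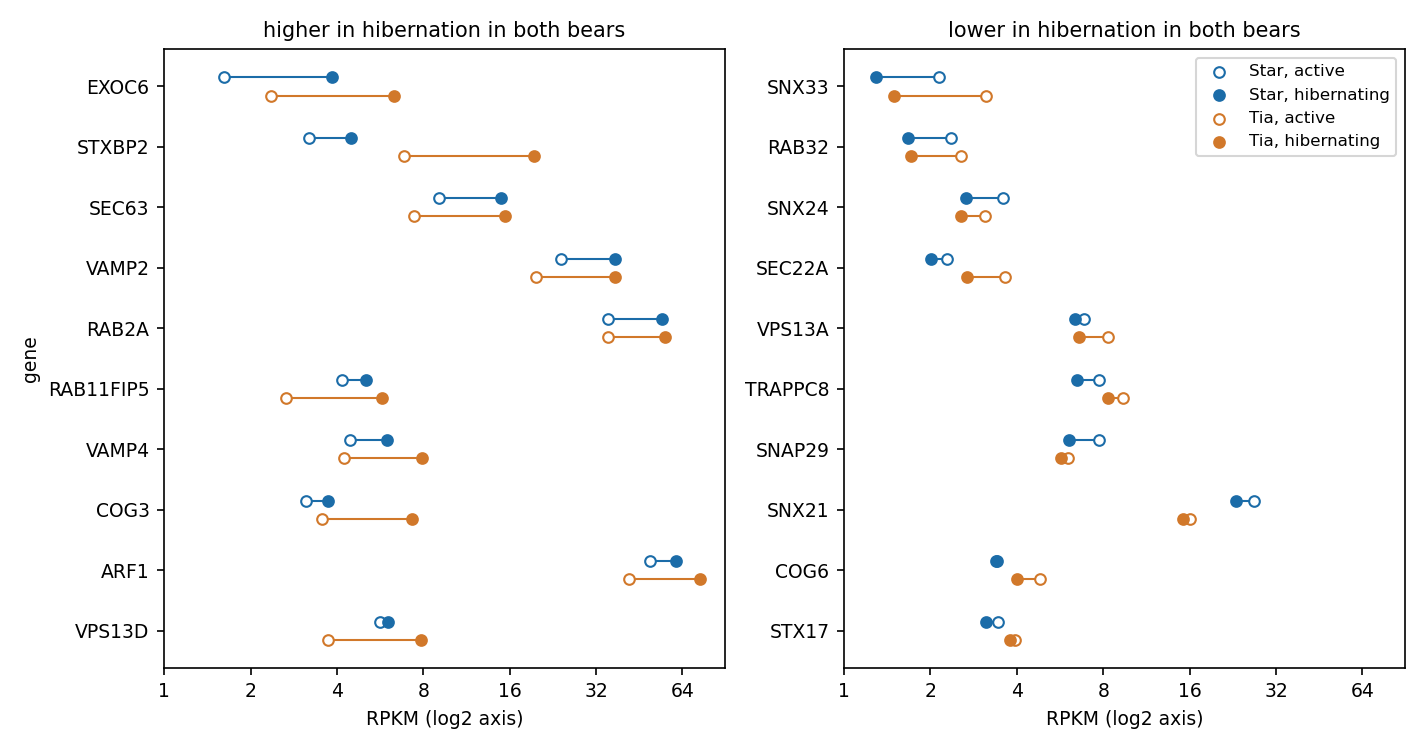
RPKM on a log2 axis for the 10 members with the largest mean change among those higher in hibernation in both bears (left) and among those lower in both (right), with 1 row per gene, Star in blue and Tia in orange, hibernating libraries as filled and active ones as open circles. On the left the filled circles of EXOC6, SEC63, VAMP2 and RAB2A lie right of both open ones, while those of STXBP2 are set apart by bear, and on the right the shifts beyond SNX33 and RAB32 are small.

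Rab GTPases, switches that recruit tethers and motors to a membrane, were higher in both bears in 13 of 19 genes and lower in 1, with a median of 0.17, close to that of all genes. With median-ratio scaling 4 were higher and 2 lower. RAB2A, a Rab of traffic between the endoplasmic reticulum and the Golgi, was at 54.2 and 55.7 RPKM in hibernation and at 35.3 and 35.2 in activity. The bears were nearly equal within a state, and the change was 0.63 with a standard error of 0.20 (limma, adjusted p = 0.541). RAB32, tied to mitochondria and lysosome-related organelles, was the Rab lower in both bears, at 1.68 and 1.71 RPKM in hibernation and 2.35 and 2.56 in activity, a change of -0.43 without overlap.

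RAB1B, which acts on the way into the Golgi, was the most abundant Rab, at 70.1 and 60.8 RPKM in hibernation and 65.4 and 52.1 in activity, a change of 0.16 that was near 0 with median-ratio scaling. It was above RAB2A in each of the 4 libraries. Among Rabs of the endosomes, RAB4A, of rapid recycling, was at 7.32 and 10.2 RPKM in hibernation and 6.46 and 6.27 in activity (0.41), and RAB11A, of slow recycling, at 13.5 and 15.6 against 11.3 and 14.6 (0.17). RAB7A, the late endosomal Rab, changed by 0.13, from 5.90 and 5.33 RPKM to 6.54 and 5.82. The widest disagreement between the bears was in RAB34, a Rab named here after its values were seen, with changes of 0.63 in Star and -0.68 in Tia. Of the Rab11 effectors, which link Rab11 membranes to motors, RAB11FIP3 was the most abundant of all members, at 146 and 128 RPKM in hibernation and 117 and 108 in activity (0.28). RAB11FIP5 was at 5.04 and 5.75 RPKM in hibernation and 4.15 and 2.66 in activity, a change of 0.62 that was 0.25 in Star and 0.98 in Tia. Reads of close relatives such as RAB11A and RAB11B or RAB8A and RAB8B may have been shared between them, so that their single values are uncertain.

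The SEC genes were grouped by symbol. SEC16A, SEC24C and SEC31A belong to the COPII route out of the endoplasmic reticulum, and the SEC61 genes, SEC62 and SEC63 to the route in. The symbol also takes in SEC22A and SEC14L5. Of these 10 COPII and other SEC genes, 6 were higher in both bears and 1 was lower, with a median of 0.26 (5 and 1 with median-ratio scaling). SEC63, a membrane protein of the translocation channel through which new proteins enter the endoplasmic reticulum, was at 14.98 and 15.4 RPKM in hibernation and 9.06 and 7.45 in activity. The groups lay far apart, the change was 0.85 with a standard error of 0.21 (limma, adjusted p = 0.541), and the unadjusted p stayed under 0.05 with each library left out in turn. Other channel parts moved less. SEC61G, its small subunit, was at 13.9 and 12.9 RPKM in hibernation and 9.74 and 10.6 in activity (0.38), SEC61A1 changed by 0.18, and SEC62, the partner of SEC63, by 0.29 in Star and -0.11 in Tia. SEC22A was the one lower in both bears, at 2.02 and 2.68 RPKM in hibernation against 2.28 and 3.64 in activity (-0.26), with overlap.

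The p24 cargo receptor TMED10 was at 23.0 and 26.6 RPKM in hibernation and 17.4 and 17.8 in activity, a change of 0.48 with both hibernating values above both active ones, and TMED7 changed by 0.47, while TMED5 was 0.05 in Star and -0.28 in Tia. With the bear as a block, TMED10 and STXBP2 joined the genes with an unadjusted p under 0.05, making 7 higher and 1 lower of 110, against 11.3% and 2.96% of all named genes. Of the 3 ARF GTPases, which recruit COPI and adaptors, ARF1 was at 60.6 and 73.4 RPKM in hibernation and 49.3 and 41.8 in activity. That is a change of 0.55, of 0.30 in Star and 0.81 in Tia, and ARF6, of the plasma membrane, showed the same split at 0.22 and 0.76, while ARF3 changed by -0.11 in Star and 0.28 in Tia. Of the 3 COPI genes taken in by the symbol rule, 2 were higher in both bears and 0 lower (1 and 1 with median-ratio scaling). COPZ2, the most abundant of them, was at 8.46 and 12.7 RPKM in hibernation and 7.41 and 10.9 in activity (0.20), with the bears further apart than the states. COPB1 changed by 0.33, and COPG by 0.17 in Star and -0.21 in Tia. ARCN1, the delta subunit of the same coat and outside the symbol rule, was at 15.1 and 22.6 RPKM in hibernation and 12.7 and 14.4 in activity, a change of 0.44 without overlap (limma, adjusted p = 0.639).

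Tethers of the Golgi were divided. Of the 6 TRAPP genes, which activate Rab1, 5 were higher and 1 was lower in both bears, with a median of 0.23 (2 and 2 with median-ratio scaling). TRAPPC1, the most abundant, was at 22.5 and 25.5 RPKM in hibernation and 16.6 and 19.6 in activity, a change of 0.40 without overlap, and TRAPPC8 at 6.497 and 8.34 against 7.75 and 9.38 (-0.20). Of the 6 subunits of COG, a tether within the Golgi, 2 were higher and 1 was lower, and with median-ratio scaling 1 was higher and 2 were lower. COG3 was at 3.73 and 7.31 RPKM in hibernation and 3.11 and 3.56 in activity (0.59), a change carried mostly by Tia (0.94 against 0.23 in Star). COG2 was at 6.78 and 8.19 against 6.79 and 5.54, and COG6 at 3.38 and 4.02 against 3.41 and 4.82 (-0.12).

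In the endosomal group the sorting nexins, which bind phosphoinositides and shape endosomal tubules, stood at a median of 0.03, the lowest of the 17 families, with 5 of 16 genes higher and 3 lower in both bears (4 and 8 with median-ratio scaling). SNX33 was at 1.29 and 1.49 RPKM in hibernation and 2.15 and 3.14 in activity. Both hibernating values lay below both active ones, the lowest being near the 1 RPKM below which no transcript is listed, and the change was -0.72 with a standard error of 0.23 (limma, adjusted p = 0.546). SNX24 was at 2.67 and 2.56 RPKM against 3.59 and 3.09 (-0.30), also without overlap, and SNX21 at 23.2 and 15.1 against 26.9 and 16.01 (-0.14), where the bears lay further apart than the states. SNX3, the most abundant, was between 36.7 and 38.5 RPKM in all 4 libraries and changed by 0.00. The 4 nexins with the largest increases, SNX19, SNX14, SNX6 and SNX4, changed by 0.41 to 0.45, in both bears, and are named after their values were seen.

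Adaptor complexes, which join cargo to clathrin and related coats, had 4 of 8 genes higher and 1 lower in both bears (4 and 2 with median-ratio scaling) and a median of 0.15. AP2M1, the cargo-binding subunit of endocytosis, was at 22.4 and 26.1 RPKM in hibernation and 18.7 and 19.0 in activity, a change of 0.35 without overlap. All 4 medium (M) subunits measured, of AP1 to AP4, were higher in both bears, by 0.19 to 0.40, which was noticed after their values were seen. ESCRT genes, with 5 of 8 higher and 1 lower (5 and 2 with median-ratio scaling) and a median of 0.23, held abundant members: CHMP4B, the filament-forming subunit, was at 68.4 and 69.8 RPKM in hibernation and 50.4 and 55.4 in activity (0.38). CHMP2A was at 67.1 and 66.4 against 53.2 and 55.7 (0.29). In both the hibernating values lay above the active ones, and the standard errors of 0.21 kept their adjusted p at 0.617 and 0.681 in limma's test.

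Retromer, HOPS and CORVET, and GARP were represented by 2, 4 and 1 genes. The retromer subunit VPS26A was at 7.93 and 8.55 RPKM in hibernation and 7.01 and 7.03 in activity (0.22). VPS41 of HOPS, which tethers at the lysosome, was at 13.7 and 14.0 against 10.9 and 11.7 (0.29), and VPS53 of GARP at 2.82 and 3.20 against 2.36 and 2.19 (0.34). These 3, the most abundant of their groups, were without overlap, as were 35.8% of all named genes in this direction. VPS26B changed by -0.07 in Star and 0.06 in Tia, and VPS16 of HOPS by -0.13 and 0.01. The VPS13 proteins, which move lipids between membranes, went different ways: VPS13D was at 6.03 and 7.84 RPKM in hibernation and 5.64 and 3.72 in activity (0.54, of which 0.98 in Tia and 0.09 in Star), VPS13C changed by 0.27, and VPS13A was at 6.37 and 6.56 against 6.85 and 8.31 (-0.21).

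**Figure D3:**
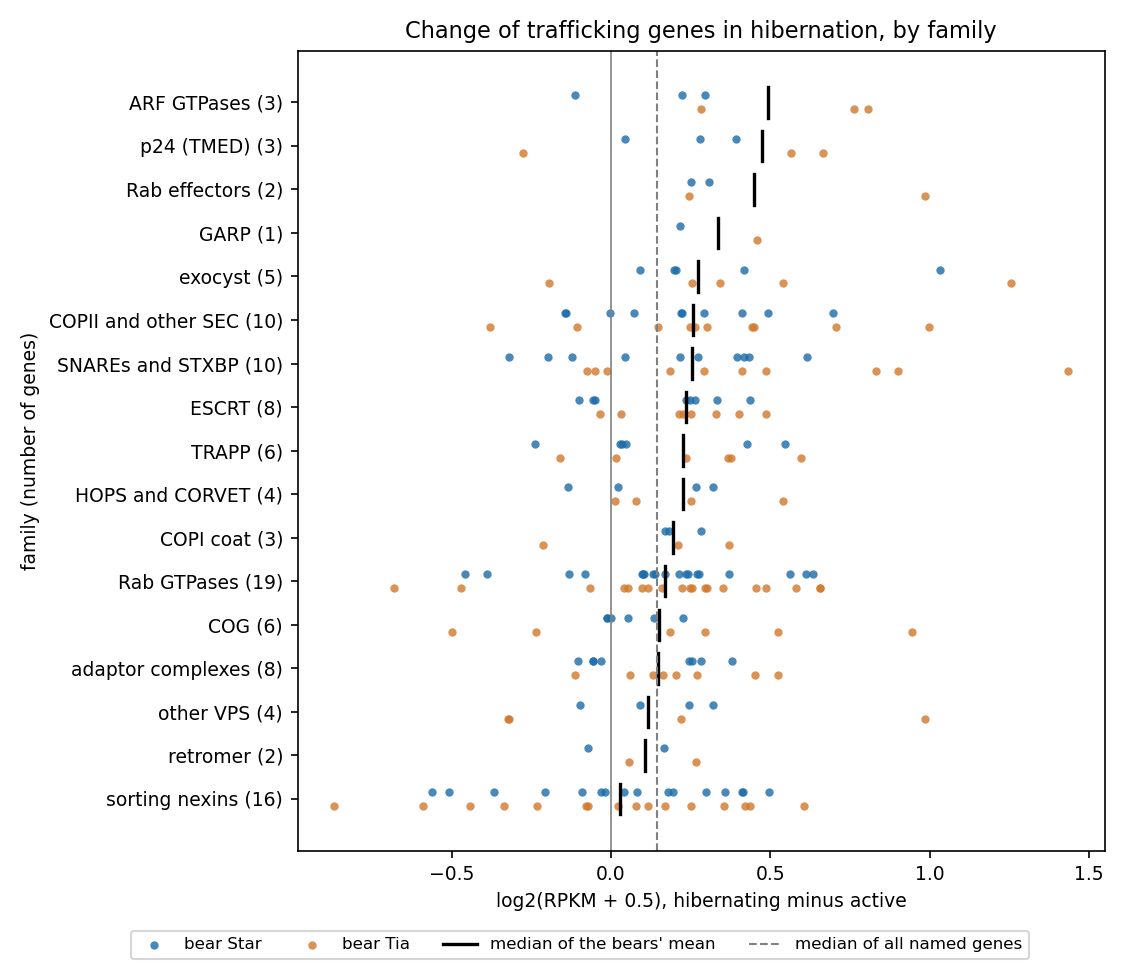
Log2 change of each member gene (hibernating minus active, from RPKM + 0.5) in Star (blue) and Tia (orange), with 1 row per family and the number of genes in brackets, a black bar at the family's median of the bears' mean and a dashed line at the median of all named genes (0.15). Family medians run from 0.03 for sorting nexins to 0.49 for ARF GTPases, and points of single genes spread on both sides of the dashed line in nearly every larger family.

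Of 16 genes with a textbook part in insulin-driven GLUT4 delivery, 9 were found, and 6 of them were higher and 0 lower in both bears. Of all named genes 48.7% were higher and 16.1% lower. With median-ratio scaling 2 of the 9 were higher and 1 lower, against 30.9% and 30.9% of all named genes. The median of the 9 was 0.17 on the deposited scale, beside 0.15 over all named genes. RAB10, RAB13, RAB5A, VAMP3, VAMP8, SNAP23 and EXOC7 were not analysed here. VAMP2, RAB4A, STX4, SEC16A, RAB11A and RAB7A were the 6. RAB14 was at 10.3 and 9.21 RPKM in hibernation and 8.43 and 9.65 in activity, RAB8A at 5.65 and 6.56 against 6.01 and 5.43, and STXBP3 at 4.32 and 3.94 against 3.65 and 3.98. These 3 differed in direction between the bears. The cargo itself, SLC2A4 (GLUT4), was at 46.4 and 44.9 RPKM in hibernation and 66.2 and 48.4 in activity, a change of -0.31 (limma, adjusted p = 0.698), and its regulator TBC1D4, a Rab GTPase-activating protein, changed by -0.22.

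The transcripts of a gene mostly moved together. Of 39 genes with several transcripts, 19 had all of them higher in both bears and 2 (SNX21 and VPS13A) all lower. RAB7A had 8, the most, and all were higher, by 0.05 to 0.15, and the 4 of SEC24C, a cargo-binding COPII subunit, lay between 0.42 and 0.43. Such transcripts overlap in sequence and share reads, so they are not separate evidence. The 4 of RAB11FIP3 fell into a short pair of 1431 and 1556 bases at 108 to 158 RPKM and a long pair of 3737 and 3872 bases at 8.90 to 14.4 RPKM, and the changes were 0.28 in the short pair and 0.44 in the long one.

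In 3 genes, transcripts went opposite ways in both bears, and 2 of these act in the COPII route. SEC16A, which organises the sites where COPII vesicles form, had a transcript of 7529 bases at 5.20 and 6.72 RPKM in hibernation and 4.93 and 3.92 in activity (0.39), and another of 832 bases at 3.71 and 3.22 against 5.01 and 6.20. The short one was lower in each bear, with a change of -0.62 and no overlap (limma, unadjusted p = 0.0397, adjusted p = 0.549). SEC31A, of the outer COPII cage, had a transcript of 1849 bases that changed by 0.33 and another of 1489 bases at 4.02 and 2.91 RPKM in hibernation and 5.23 and 5.80 in activity (-0.61, unadjusted p = 0.0487 and adjusted p = 0.549 in limma's test). In the third gene, TRAPPC11, the changes were -0.19 and 0.02. For VAMP4 the direction held for 1 of 2 transcripts, the other changing by 0.00, and of the 5 of STXBP2 the changes ran from 0.12 to 0.93.

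**Figure D4:**
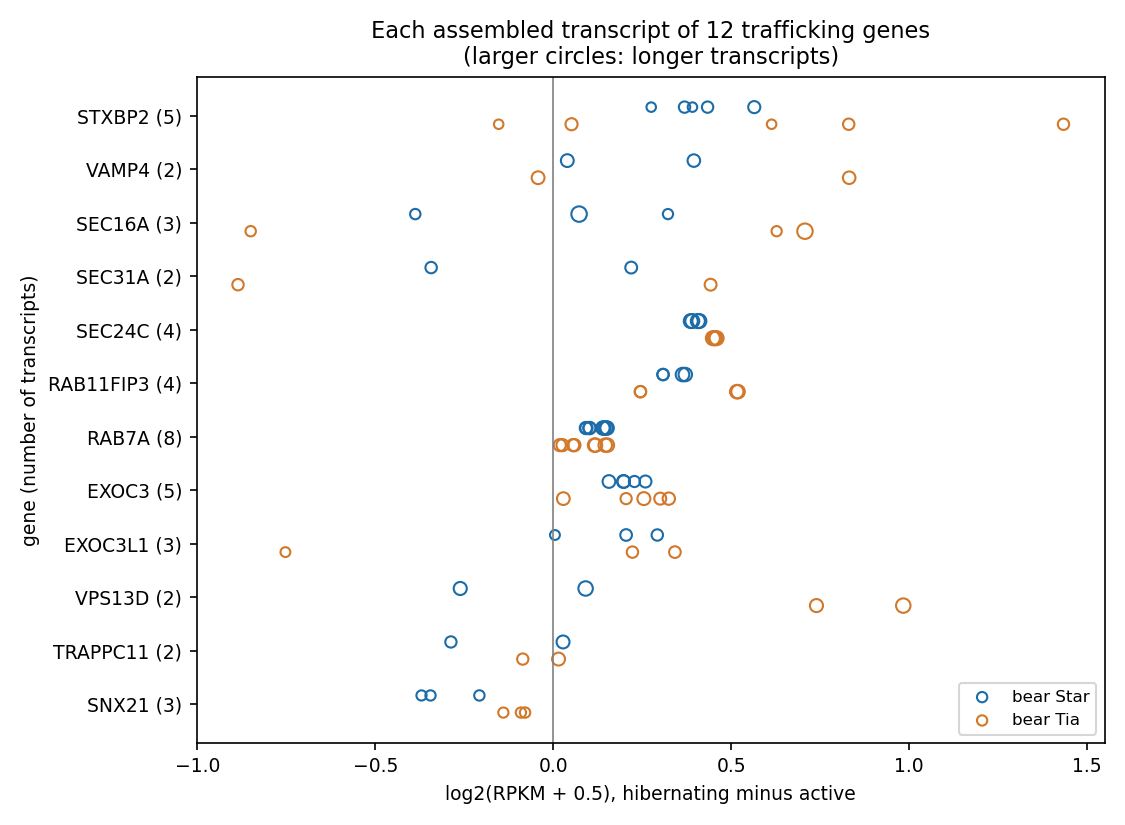
Log2 change (hibernating minus active, from RPKM + 0.5) of every assembled transcript of 12 member genes, with 1 row per gene, the number of transcripts in brackets, Star in blue and Tia in orange, and larger circles for longer transcripts. The circles of RAB7A and SEC24C fall together, whereas those of SEC16A and SEC31A lie on both sides of 0 in each bear.

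Partners of the pathway that the symbol rule does not take in were found in both directions. Of 97 listed genes 42 were found, of which 21 were higher and 9 lower in both bears (16 and 16 with median-ratio scaling), with a median of 0.15, and 3 of 42 had an unadjusted p under 0.05, namely BET1L, ARFGEF2 and SORT1 (smallest adjusted p = 0.549 in limma's test), which were higher on the deposited scale, a share near the 7.84% of all named genes. With median-ratio scaling 0 were higher and 1, TFRC, was lower, and with the bear as a block 5 were higher and 2 lower. Of the ER to Golgi genes 7 of 10 were higher and 1 lower (5 and 2 with median-ratio scaling). KDELR2, the receptor that retrieves residents of the endoplasmic reticulum, was at 13.3 and 25.1 RPKM in hibernation and 9.76 and 11.3 in activity (0.77). Of 10 listed genes that act before or beside the ESCRT filament proteins, only 3 were found, HGS, PDCD6IP and TSG101. All 3 were higher in both bears (0.39 to 0.43), as were 48.7% of all named genes. Clathrin, dynamin and their partners had 4 of 10 higher and 2 lower, which turned to 2 and 6 with median-ratio scaling. The remaining SNARE genes had 2 and 1 of 5 (2 and 2 with median-ratio scaling), and Rab regulators 3 and 2 of 6 (2 and 3). Of 5 cargo genes of insulin-responsive vesicles 2 were higher and 2 lower. Among them SORT1, the sorting receptor sortilin, was at 13.3 and 14.5 RPKM in hibernation and 9.63 and 9.502 in activity (0.51), while TFRC, the transferrin receptor, was at 4.30 and 15.7 against 16.8 and 64.9, a change of -1.93 (limma, unadjusted p = 0.0502, adjusted p = 0.549). Of the 3 membrane repair genes found, 0 were higher and 1, TRIM72, was lower in both bears.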

How the data were processed

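Poly(A) RNA of 4 biopsies was sequenced single-end by the authors, who assembled transcripts de novo (Newbler 2.3 and SOAPdenovo), named them by BLAST against human proteins (Ensembl 66) and aligned reads with SOAP2, allowing 2 mismatches. Gene names are thus those of human orthologs, some in older form (COPG, RAB7L1). The deposited values are RPKM per transcript, each at least 1 in every library, and transcripts under 1 in some library were not analysed here. The deposited transcript length, taken as a plain score, served only to recover depth and to choose transcripts. How reads matching several transcripts were assigned is not given in the sources used here. RPKM times length was a whole number of reads, within 0.1 reads, for 94.5% to 95.2% of low values (under 3 RPKM, under 600 bases).

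log2(RPKM + 0.5) was compared by limma 3.58.1 (R 4.3.3) with a trended prior (Benjamini-Hochberg over 9093 named transcripts, no bear term). Since each bear gave both states, the bear pairs the libraries (Pearson r of deviations 0.356 across transcripts), and a block was an alternative. NOISeq, the tool of the study, was replaced by a score over 53228 within-state differences. Each library is 1 biopsy, so the p-values rest on the spread between 2 animals. The prior draws that spread toward the one typical of named transcripts at a similar level. Where the bears nearly agreed, as in RAB2A (standard error 0.20), the standard error was set largely by the prior. Both scripts were tested on simulated data. Pooled and paired-end samples were not analysed here. No sequences or coordinates are printed, since none were at hand for these assembled transcripts.

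Members and lists were chosen with earlier results of these data known. Named genes are the 10 largest increases and 10 largest decreases shared by both bears, the most abundant gene of each of 17 families, the GLUT4 delivery genes, those with an adjusted p under 0.05 or a score of at least 0.8, and genes with 3 or more transcripts that differ in direction. Others were named after their values were seen. Alternatives were the pseudocount (0.1 and 1), median-ratio and upper-quartile scaling, a mean RPKM of at least 5, the prior without trend, the block, each library left out, each bear alone, the choice of transcript, the noise and the score threshold. A count without the active library of Tia was added after seeing the data. The software was Python 3.11.15, with matplotlib 3.10.9 for plots and numpy 2.4.6 and pandas 2.3.3 for tables.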

Additional observations from a re-analysis of the deposited data

Results flagged for a closer look

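Among the members picked by the rule given under the processing, these 5 moved in opposite directions in the bears, as did 33 of all 110 members. Values are log2 changes, hibernating minus active. COG2 changed by -0.00139 in Star and 0.52 in Tia, and SNX3 by -0.019 and 0.020. RAB8A changed by -0.082 in Star and 0.25 in Tia. In the other direction, RAB14 changed by 0.28 in Star and -0.065 in Tia, and STXBP3 by 0.22 and -0.013. With 1 library per bear and state these differences between the bears were not tested.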

How the results depend on the processing

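Results kept their direction and their side of the threshold with pseudocounts of 0.1 and 1, the prior without trend and, for gene counts, the summed or the longest transcripts. With the bear as a replicate block, 0 member transcripts had an adjusted p under 0.05 (smallest 0.340), 8 genes an unadjusted p under 0.05, and partner genes 7 (5 higher and 2 lower) in place of 3. Median-ratio scaling left 1 member transcript with a score of at least 0.8, 27 genes lower in both bears and 1 partner gene with an unadjusted p under 0.05, which was lower, where the 3 on the deposited scale were higher. Upper-quartile scaling left 1 transcript and 25 genes, a mean RPKM of at least 5 left 1 transcript, and a score threshold of 0.9 left 0. Shares of all named transcripts at these score settings were not counted. Nor were shares of all named genes with upper-quartile scaling or, for the unadjusted p, without 1 library. Such counts are therefore no result about the members. Leaving out 1 library gave 0 to 2 member transcripts with an adjusted p under 0.05 (2 without hibernating Star, 0 otherwise) and 3 to 6 genes with an unadjusted p under 0.05, 3 without active Tia. Mean log2 changes of single genes were followed across settings for the genes picked by the rule given under the processing. Among these, the changes that turned sign with median-ratio and upper-quartile scaling were those of SNX3 (-0.16 and -0.15), RAB8A (-0.069 and -0.056), RAB14 (-0.053 and -0.040), RAB7A (-0.027 and -0.014) and STXBP3 (-0.047 and -0.035). RAB1B was at -0.00459 with the median ratio. Other members turned too: SNX9 and TRAPPC11 were higher in both bears on the deposited scale and lower in both with either scaling. For genes picked by the rule, sign also turned in fits without 1 library. These fits have no bear term, so the 1 library left in a state was set against both bears in the other. A difference between the bears thus enters these changes. Within the bears COPZ2, for example, changed by 0.18 in Star and 0.21 in Tia. Without hibernating Star, STX17 was at 0.034 and SNX3 at -0.014. Without active Star, SNX21 was at 0.22, COPZ2 at -0.070 and RAB11A at -0.00676. Without hibernating Tia, STXBP2 was at -0.067, SNX21 at 0.16, COPZ2 at -0.085 and RAB8A at -0.015. Without active Tia, SEC22A was at 0.024, COG6 at 0.098, RAB1B at -0.00220 and SNX3 at -0.034. The cause was not tested. A filter below the table's minimum of 1 RPKM was not run, since no values lie there. With 2 libraries per state and single transcripts resting on as few as 31.0 reads, the changes typical of the members are not resolved gene by gene.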
